A study of Mus musculus with 16 samples.

Results

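The genes described here are 38 genes of distal mouse chromosome 16 that lie between Lipi and Zbtb21, the segment of which Dp16 mice carry an extra copy: mitochondrial, metabolic and replication genes together with genes that are known mainly from tissues other than brain. They were chosen by gene symbol from the table of read counts, where they make up 39 of 55385 rows, because Atp5o has a second, minor row. The segment (GRCm38, chr16:75540514-97962622) holds 384 rows of the table, 203 of them with at least 1 count, and all 39 rows of the chosen genes lie inside it by GENCODE M21 coordinates. The question was whether the 3:2 gene dosage shows in the RNA of highly and of weakly expressed genes alike, without and with amyloid transgenes.

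Polyadenylated RNA was sequenced from brain cortex of 16 mice aged 9 months, in 4 groups of 4 animals with 2 females each. WT mice were wild-type C57BL/6J, Dp16 mice carried the chromosome 16 duplication, 5xFAD mice carried amyloid transgenes, and 5xFAD-Dp16 mice carried both. 5xFAD is a transgenic line whose transgenes are driven by the Thy1 promoter, which is active mainly in neurons, and it deposits amyloid plaques. The labels name a strain for the WT mice, and no source used here gives litters or the background of the other groups. The p-values measure the spread between these samples. In bulk tissue, fewer cells of a type and less RNA per cell cannot be told apart.

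In Dp16 mice a segment that matches much of human chromosome 21 is duplicated on one of the paired chromosomes, so each of its genes is present in 3 copies where WT mice have 2. If RNA follows gene copies, every such gene should give 1.5 times the WT level, which is 0.58 on the log2 scale. Genes of oxidative phosphorylation, mitochondrial translation and purine synthesis work in all cells, and the brain is rich in their transcripts. Others are switched on in few cell types, such as ion channel subunits of the choroid plexus (the epithelium that makes cerebrospinal fluid), transcription factors of blood and vessel cells, and interferon-induced antiviral proteins, so their cortical RNA depends on which cells were sampled and in which state.

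Library totals ran from 16874481 to 22912168 counts, and 9 markers of cortical excitatory neurons were detected in every library. Levels are given as CPM, read counts relative to the library total after scaling by TMM, a normalization across libraries, and levels of different genes are compared as the authors' RPKM, which divides by gene length. The 9 neuron markers summed to 2538.5 CPM in WT 3, the lowest library, and to 7529 CPM in WT 1, the highest. Striatal markers, 8 in number, were also detected in every library, at sums of 636 to 1711 CPM. A gene was called when the edgeR quasi-likelihood test gave a Benjamini-Hochberg adjusted p below 0.05 over all 17555 genes tested. Dp16 was compared with WT, 5xFAD-Dp16 with 5xFAD, and the pooled Dp16 effect is the mean of these comparisons, which share no library. Libraries differed in how strongly levels depended on gene length. For each library, the log2 level minus the gene's mean over all 16 libraries was regressed on log2 length. This length slope is thus relative to the average library. It was lowest in WT 3 (-0.44), Dp16 4 (-0.18) and Dp16 3 (-0.17) and ran from -0.13 to 0.28 in the other 13. Short genes thus read relatively high in those libraries, and a fit with this slope as a further covariate is given beside the main values.

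Of the 39 rows, 33 passed the low-count filter, which asks for about 10 counts in at least 4 libraries, so a weakly expressed gene can pass through 1 group alone. The 6 rows that did not pass were Sim2, Tmprss2, Fam3b, Kcne1, Kcnj15 and the minor Atp5o row, with 3 to 35 counts each over all libraries. Among the 33 tested genes, 30 had a log2 fold change above 0 in Dp16 against WT, where 42.9% of all genes did. In 5xFAD-Dp16 against 5xFAD 31 of 33 were above 0, where 50.9% of all genes were, and 28 of 33 were above 0 in both. For the pooled effect it was 30 of 33, beside 46.3%. The 4 libraries of Dp16 lay entirely above those of WT for 5 of the 33 genes, where 0.98% of all genes did so, and those of 5xFAD-Dp16 above those of 5xFAD for 14, where 1.73% did. The median log2 fold change was 0.56 in Dp16 against WT and 0.57 in 5xFAD-Dp16 against 5xFAD, while the medians of all genes tested were -0.03 and 0.00. The 76 other tested genes of the segment had medians of 0.54 and 0.58, and the 426 tested genes of the rest of chromosome 16 had -0.03 and 0.02. The medians of the 33 tested genes and of the other tested genes of the segment thus lay near a ratio of 3:2.

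Few single genes passed the test. In Dp16 against WT edgeR called 0 of the 33 genes, where it called 0.0057% of all genes higher; 10 of the 33 had an unadjusted p under 0.05, all higher, beside 1.29% of all genes, and DESeq2 called 2, beside 0.0639%. In 5xFAD-Dp16 against 5xFAD edgeR also called 0, where it called 0.0057% of all genes higher; 12 had an unadjusted p under 0.05, all higher, beside 1.63% of all genes, and DESeq2 called 1, beside 0.0934%. The pooled effect called 2 genes higher, Gart and Rwdd2b, where 0.0854% of all genes were called higher, and 21 of the 33 had an unadjusted p under 0.05 and were higher, where 2.02% of all genes were. DESeq2 called 7 in the pooled effect, where it called 0.2% of all genes higher. Adding the length slope to the fit gave counts of 7, 14 and 18, where 0.239%, 0.41% and 0.575% of all genes were called higher, and 7 genes were called in both separate comparisons. Without WT 3 the pooled count was 10, and the median in Dp16 against WT was 0.97 instead of 0.56.

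**Figure D1:**
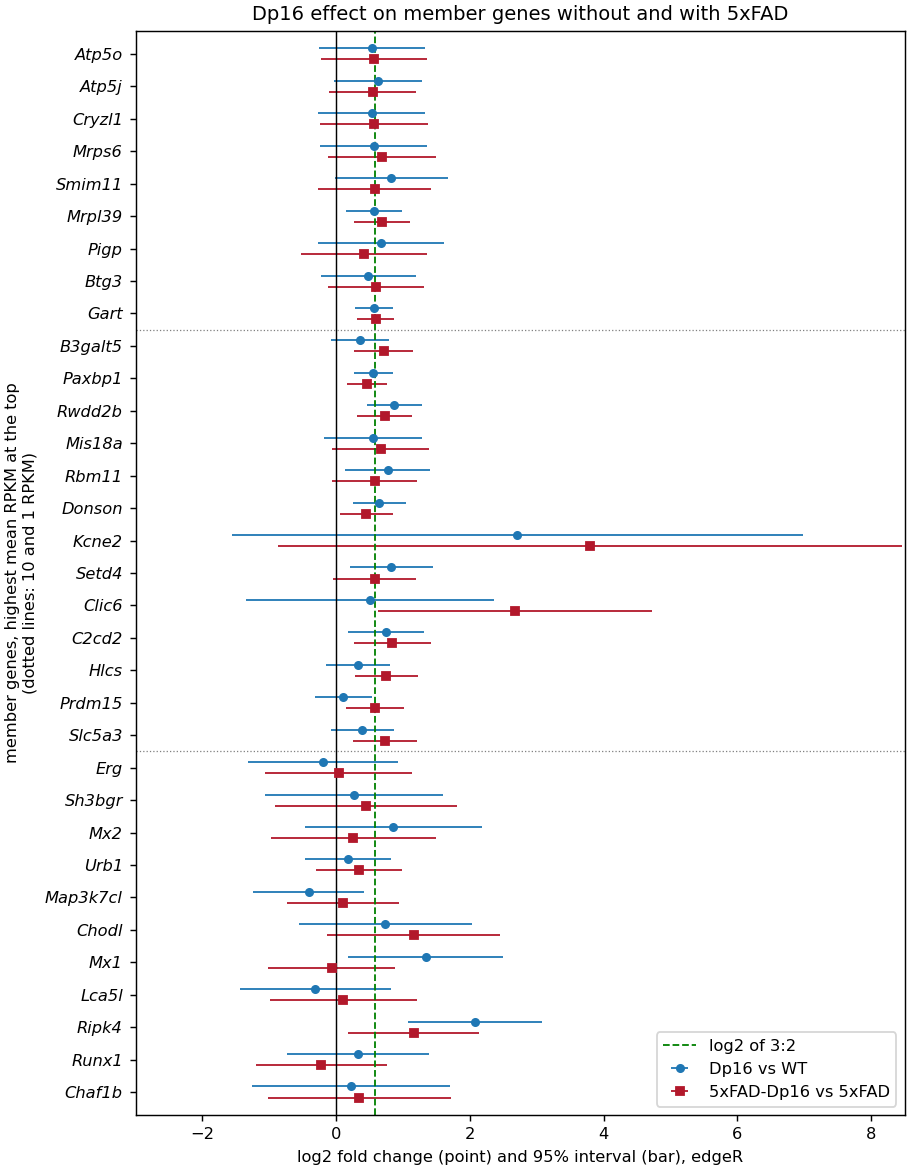
Log2 fold change of each of the 33 tested genes (points) with its 95% interval (bars) in Dp16 against WT (blue circles) and in 5xFAD-Dp16 against 5xFAD (red squares), ordered by mean RPKM from the top, with dotted lines at 10 and 1 RPKM. Most points lie near the dashed line at the log2 of 1.5, and Kcne2, Clic6 and Ripk4 stand to its right in at least 1 comparison.

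The separate libraries show the same pattern. The median over the 33 genes of the log2 difference from the mean of non-carriers (WT and 5xFAD) ran from 0.36 to 0.72 over the 8 Dp16-carrying libraries. Over the 8 non-carriers it ran from -0.26 to 0.32, the highest value being that of WT 3, so carriers and non-carriers did not overlap on this scale. Against the mean of WT alone they did overlap: WT 3 stood at 0.48, above 4 carriers at 0.39 to 0.46. The genes of intermediate level separated most clearly, with 0.45 to 0.73 in carriers and -0.25 to 0.16 in non-carriers. For the genes of highest level the ranges overlapped, at 0.24 to 1.27 and -0.58 to 1.15, because WT 3 reached 1.15. No other non-carrier exceeded 0.17 in that class. For the genes of lowest level the ranges overlapped too, at -0.03 to 0.79 in carriers and -0.27 to 0.25 in non-carriers. Before the log2 was taken, 0.5 CPM was added to each level, which shrinks the differences of genes near or below that level.

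The genes were then divided by mean RPKM over all 16 libraries into at least 10 (9 tested genes), 1 to 10 (13 genes) and under 1 (11 genes). Kcne2 fell in the class of 1 to 10 through a few high libraries, with a mean of 3.16 RPKM and a median of 0.284. The pooled Dp16 effect had a median of 0.58 in the highest class, where 9 of 9 genes were above 0, and of 0.60 in the intermediate class, where 13 of 13 were. In the lowest class it was 0.28, with 8 of 11 genes above 0, and an interquartile range of -0.02 to 0.60. The interquartile range of the highest class was 0.55 to 0.62. With the length slope the medians were 0.58, 0.62 and 0.47. Across the 33 genes, level and pooled effect had a Spearman's rho of 0.25, and level and the absolute distance from the log2 of 1.5 had one of -0.63. These are descriptions across genes of the same 16 libraries, in which counting noise is larger for weakly expressed genes.

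The intervals show what each class could resolve. In the highest class the 95% interval of the pooled effect held the log2 of 1.5 but not 0 for 6 of 9 genes and held both for 3. In the intermediate class it held the log2 of 1.5 but not 0 for 12 of 13, and for the 13th, Kcne2, it lay above both values. By its median of 0.284 RPKM Kcne2 would belong to the lowest class, so its interval does not describe genes of intermediate level. In the lowest class 8 of 11 intervals held both values, 1 held the log2 of 1.5 alone (Chodl), 1 held 0 alone (Map3k7cl) and 1 held neither (Ripk4). Among all genes tested, 1.49% had an interval with the log2 of 1.5 and without 0, 23.4% one with both, 72.3% one with 0 alone and 2.8% one with neither. For most genes of the lowest class, a 3:2 ratio and no difference were therefore not distinguishable in these libraries. The median SE was 0.26 in the highest class, 0.16 in the intermediate class and 0.37 in the lowest.

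**Figure D2:**
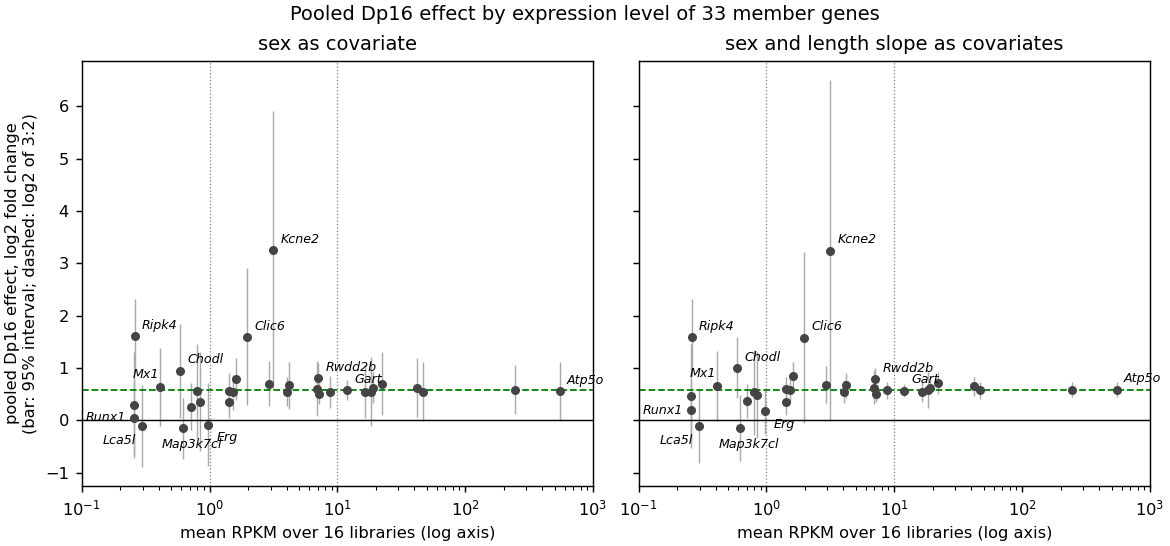
Pooled Dp16 effect (log2 fold change, points, with 95% intervals) against mean RPKM on a log axis for the 33 tested genes, with sex as covariate on the left and with sex and length slope on the right. Genes above 10 RPKM lie close to the dashed line at the log2 of 1.5 in both panels, with shorter intervals on the right, while genes under 1 RPKM spread from -0.16 to 1.62 on the left.

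Among the mitochondrial genes, Atp5o and Atp5j encode subunits of ATP synthase, which makes most cellular ATP, and Mrpl39 and Mrps6 encode proteins of the large and small subunits of the mitochondrial ribosome. All 4 belonged to the class of highest level, with mean RPKM of 549 for Atp5o, 245 for Atp5j, 42.0 for Mrps6 and 19.0 for Mrpl39. Their pooled log2 fold changes ran from 0.55 to 0.62, and with the length slope from 0.58 to 0.65. None of the 4 was called in the main test, 3 had an unadjusted p under 0.05, and 4 of 4 were called with the length slope.

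Atp5o (chr16:91925214-91931687, minus strand) encodes the oligomycin sensitivity conferring protein that joins the catalytic head of ATP synthase to its stalk. It read 214, 349, 874 and 303 CPM in WT libraries 1 to 4, 415, 495, 827 and 789 in Dp16, 227, 393, 269 and 404 in 5xFAD and 417, 590, 418 and 483 in 5xFAD-Dp16. Every 5xFAD-Dp16 library lay above every 5xFAD library, but WT 3 lay above all Dp16 libraries. The 3 libraries of lowest length slope held the 3 highest values. The pooled log2 fold change was 0.55 ± 0.26 (SE, edgeR adjusted p = 1.0) in the main test, 0.58 ± 0.068 (edgeR adjusted p = 1.05e-05) with the length slope, and 0.90 without WT 3, so the estimate stayed near 3:2 with the slope while its error became smaller. The minor Atp5o row, a gene model that shares exons with Atp5o and Donson, had 1 count in carriers and 10 in non-carriers, a ratio per library total of 0.0961 with an exact Poisson 95% interval of 0.00222 to 0.676, which covers counting error only.

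Atp5j (chr16:84827866-84835625, minus strand) encodes coupling factor 6 of the ATP synthase stalk. Its level was 140, 201, 435 and 192 CPM in WT, 258, 293, 492 and 442 in Dp16, 156, 227, 182 and 234 in 5xFAD and 251, 347, 261 and 306 in 5xFAD-Dp16. The 5xFAD and 5xFAD-Dp16 libraries did not overlap, and WT 3 lay within the range of the Dp16 libraries. Pooled, the log2 fold change was 0.58 ± 0.22 (edgeR adjusted p = 0.969), and 0.59 ± 0.072 with the length slope (edgeR adjusted p = 2.48e-05). Gabpa lies on the opposite strand and shares 397 exonic bases with Atp5j, and no source used here says whether reads were counted by strand.

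Mrpl39 (chr16:84717576-84735742, minus strand) read 30.1, 35.8, 53.9 and 31.1 CPM in WT, 45.3, 54.6, 61.8 and 61.2 in Dp16, 26.1, 38.1, 26.6 and 35.4 in 5xFAD and 45.0, 58.7, 50.6 and 48.2 in 5xFAD-Dp16. Carriers and non-carriers were apart except for WT 3, which lay within the carrier range. Its pooled log2 fold change of 0.62 ± 0.14 had an edgeR adjusted p of 0.225, and of 1.09e-06 with the length slope at 0.62 ± 0.060. Mrps6 (chr16:92058270-92112227, plus strand) read 20.4, 25.7, 70.1 and 18.6 CPM in WT, 30.3, 42.7, 63.6 and 59.9 in Dp16, 15.96, 24.4, 21.9 and 31.4 in 5xFAD and 34.2, 48.6, 32.7 and 35.7 in 5xFAD-Dp16. WT 3 was the highest of all 16 libraries for Mrps6, and every 5xFAD-Dp16 library was above every 5xFAD library. For Mrps6 the pooled log2 fold change was 0.62 ± 0.27 (edgeR adjusted p = 1.0), and 0.65 ± 0.086 with the length slope (edgeR adjusted p = 8.46e-05).

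Partners of these proteins that are encoded elsewhere in the genome had medians near 0. Of 15 tested subunits and factors of ATP synthase outside the segment, edgeR called 0 in the pooled Dp16 effect, 0 had an unadjusted p under 0.05, and their median log2 fold change was -0.07. Of 75 tested mitochondrial ribosomal proteins outside the segment, it called 0, 0 had an unadjusted p under 0.05, and the median was 0.04. The 2 of smallest p in the first list were Atp5g2 at -0.18 and Atp5g1 at 0.09, and in the second Mrpl38 at 0.20 and Mrps2 at 0.19. With the length slope the medians of the lists were -0.03 and 0.05, and edgeR again called 0 in each. In that fit 1 of the 15 was lower at an unadjusted p under 0.05. Of the 75, 5 were higher and 1 lower at that limit, and 55 were above 0. All 4 chosen mitochondrial genes thus had larger fitted values than the medians of their partners, a difference that was not tested.

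Promoter sequences of 28 of the 38 genes were found in RefSeq (GRCm38.p6), as 41 windows of 300 bases from 250 before to 50 after a start. The bases before the start are shown for 4 genes on which results turn: Mrpl39 and Atp5j as highly expressed genes with a window that holds a motif described next, Mrps6 for the start it shares with Slc5a3, and Kcne2 as the gene with the highest pooled value. The Atp5j window shown belongs to a start inside the annotated gene. A further Atp5j window, chr16:84835576-84835875 at the annotated gene start, holds neither of the motifs marked in Mrpl39 and Atp5j. Capitals mark the NRF1 palindrome in Mrpl39, the letters CCGGAAG in Atp5j, the bases from the Slc5a3 start onward in Mrps6, and each CG in Kcne2. They lie at chr16:84735245-84735494 (Mrpl39, minus strand), chr16:84834977-84835226 (Atp5j, minus strand), chr16:92058086-92058335 (Mrps6, plus strand) and chr16:92292139-92292388 (Kcne2, plus strand).
Mrpl39: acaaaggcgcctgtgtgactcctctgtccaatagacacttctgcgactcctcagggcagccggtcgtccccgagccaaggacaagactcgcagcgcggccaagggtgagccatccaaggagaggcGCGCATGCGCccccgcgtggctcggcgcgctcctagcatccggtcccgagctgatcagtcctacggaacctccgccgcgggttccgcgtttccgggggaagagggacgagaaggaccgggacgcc
Atp5j: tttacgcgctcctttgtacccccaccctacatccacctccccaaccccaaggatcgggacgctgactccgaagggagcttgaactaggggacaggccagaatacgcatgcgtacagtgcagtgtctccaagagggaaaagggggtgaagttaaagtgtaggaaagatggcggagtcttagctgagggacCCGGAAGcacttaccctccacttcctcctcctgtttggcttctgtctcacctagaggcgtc
Mrps6: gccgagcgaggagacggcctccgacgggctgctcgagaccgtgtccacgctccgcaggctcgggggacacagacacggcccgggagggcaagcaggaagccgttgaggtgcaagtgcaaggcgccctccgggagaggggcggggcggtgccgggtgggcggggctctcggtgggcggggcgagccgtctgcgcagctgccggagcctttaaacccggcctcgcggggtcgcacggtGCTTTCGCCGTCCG
Kcne2: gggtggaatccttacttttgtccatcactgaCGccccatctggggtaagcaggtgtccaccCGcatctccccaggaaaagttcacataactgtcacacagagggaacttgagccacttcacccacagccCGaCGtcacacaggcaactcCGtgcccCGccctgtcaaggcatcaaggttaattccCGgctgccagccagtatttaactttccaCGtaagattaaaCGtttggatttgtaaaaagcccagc

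The palindrome in capitals in the Mrpl39 sequence is the site known for the nuclear respiratory factor NRF1, and CCGGAAG is a core bound by ETS factors such as GABP, both known regulators of nuclear genes for mitochondrial proteins. Searched on both strands, the palindrome was in 5 of 41 windows of the chosen genes (12.2%) and in 0.971% of all 32851 promoter windows. It occurred in windows of Mrpl39, Paxbp1 and Mis18a and in windows of Pigp that overlap each other. CCGGAAG was in 9 of 41 windows (22.0%) and in 8.86% of all windows, and TATAAA was in 3 of 41 (7.32%) and in 13.6% of all. A match describes letters only, windows of 1 gene can overlap, and the motifs were not tested. The median number of CG dinucleotides per window was 30.5 in the highest class, 24.5 in the intermediate and 13 in the lowest, where all promoters had a median of 7. Over the 41 windows it was 24. The palindrome and CCGGAAG contain CG themselves, so their shares were not compared at like CG content, and the part of CG content was not tested.

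Among metabolic genes, Gart had the smallest p of all 33 genes in the pooled effect. Gart (chr16:91621186-91646952) encodes a trifunctional enzyme that catalyses 3 steps of purine synthesis. It read 32.3, 39.5, 46.9 and 37.6 CPM in WT, 57.3, 56.7, 58.5 and 58.6 in Dp16, 36.8, 37.7, 35.2 and 39.0 in 5xFAD and 57.4, 64.2, 52.8 and 49.3 in 5xFAD-Dp16. All 8 carriers lay above all 8 non-carriers, WT 3 included, which 0.125% of all genes did in the higher direction and which also held for Paxbp1 and Donson among the 33. Group means were 39.1 ± 6.03 (SD, n = 4) in WT and 57.8 ± 0.904 in Dp16, and 37.2 ± 1.58 in 5xFAD and 55.9 ± 6.45 in 5xFAD-Dp16. The pooled log2 fold change was 0.58 ± 0.093, a ratio of 1.49 (edgeR adjusted p = 0.0239, from 1.87e-06 to 0.097 over the alternatives), so Gart rose. The call was lost when any of 12 of the 16 libraries was left out, with edgeR adjusted p of 0.0675 to 0.097. It remained without WT 1, WT 3, Dp16 1 or 5xFAD-Dp16 4, at edgeR adjusted p of 0.00116 to 0.0474. The log2 fold change itself stayed between 0.53 and 0.64. Of 12 other purine synthesis enzymes edgeR called 0, 0 had an unadjusted p under 0.05, and the median pooled log2 fold change was 0.04.

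Slc5a3 is the sodium-coupled transporter that takes up myo-inositol, an osmolyte of brain cells. By the RefSeq starts it begins 14 bases before Mrps6 on the same strand. By the GENCODE M21 coordinates Mrps6 begins first, at chr16:92058270. In GENCODE M21 the genes share 159 exonic bases, so reads there cannot be assigned to one of them. Slc5a3 (chr16:92058322-92087473) read 17.7, 14.8, 9.66 and 10.1 CPM in WT, 19.9, 18.6, 13.3 and 16.9 in Dp16, 12.8, 8.33, 12.5 and 13.7 in 5xFAD and 16.8, 19.1, 24.3 and 18.6 in 5xFAD-Dp16. WT 3, in which Mrps6 was highest, had the lowest Slc5a3 value of the WT group. By RPKM, Mrps6 averaged 42.0 and Slc5a3 1.42. Slc5a3 had a pooled log2 fold change of 0.56 ± 0.16 (edgeR adjusted p = 0.625), beside 0.62 for Mrps6, and it had an edgeR adjusted p of 0.00771 with the length slope. Of 8 other osmolyte transport and osmotic response genes edgeR called 0, with 0 at an unadjusted p under 0.05, and their median was -0.19.

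Hlcs, the enzyme that attaches biotin to carboxylases, read 8.84 to 15.2 CPM in carriers and 4.95 to 9.26 in non-carriers. Its pooled log2 fold change was 0.54 ± 0.16 (edgeR adjusted p = 0.662), and 0 of 8 biotin-dependent carboxylases and biotinidase were called, 0 had an unadjusted p under 0.05, and their median was -0.04. Pigp, a subunit of the enzyme that starts synthesis of GPI anchors, read 15.5, 19.7, 63.8 and 23.3 CPM in WT, 28.6, 31.3, 68.9 and 65.8 in Dp16, 13.8, 32.99, 22.0 and 35.4 in 5xFAD and 25.2, 40.3, 30.3 and 43.1 in 5xFAD-Dp16. WT 3 was again far above the other WT libraries, and the amyloid groups overlapped. Pigp had a pooled log2 fold change of 0.54 ± 0.31 (edgeR adjusted p = 1.0), and of the 9 genes of the highest class it was the 1 not called with the length slope (edgeR adjusted p = 0.137). It shares 326 exonic bases with Ttc3 on the opposite strand, a gene with far more reads. Of 20 other GPI anchor genes edgeR called 0, 0 had an unadjusted p under 0.05, and the median was -0.05. Cryzl1, a quinone reductase-like protein, read 119 to 256 CPM in carriers and 66.5 to 261 in non-carriers, with a pooled log2 fold change of 0.55 ± 0.27 (edgeR adjusted p = 1.0) and an edgeR adjusted p of 0.000169 with the length slope.

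**Figure D3:**
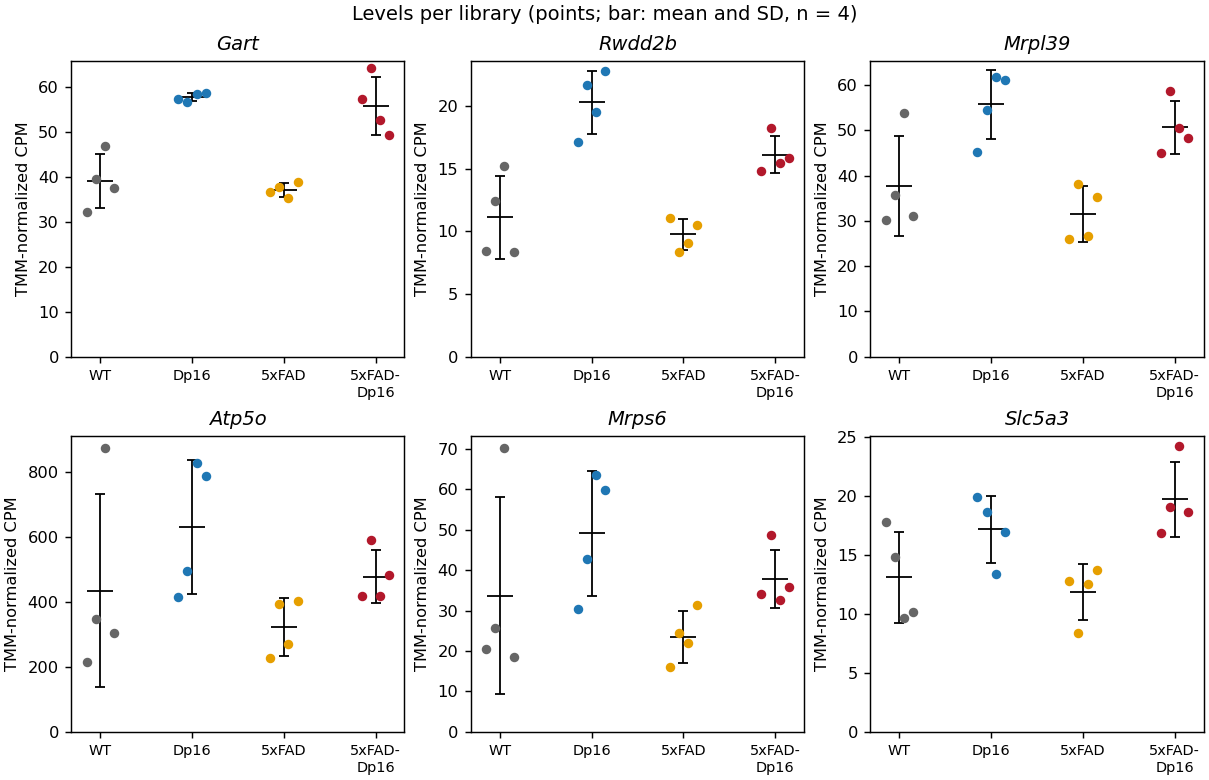
TMM-scaled CPM (y axis, from 0) of Gart, Rwdd2b, Mrpl39, Atp5o, Mrps6 and Slc5a3 in each of the 16 libraries by group, with group mean and SD (n = 4). Gart carriers lie at 49.3 to 64.2 CPM, all above the non-carriers at 32.3 to 46.9 CPM, while for Atp5o and Mrps6 the highest WT library, WT 3, lies above all carriers.

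Among genes of the nucleus, replication and chromatin, 8 were tested and pooled log2 fold changes ran from 0.26 to 0.80. Rwdd2b (chr16:87433407-87440573), a little-studied gene for a protein with an RWD domain, read 8.46, 12.4, 15.2 and 8.36 CPM in WT, 17.2, 21.6, 19.5 and 22.8 in Dp16, 11.1, 8.38, 9.04 and 10.5 in 5xFAD and 14.8, 18.2, 15.5 and 15.9 in 5xFAD-Dp16. The groups did not overlap within either background; WT 3 lay above the lowest 5xFAD-Dp16 library. Its pooled log2 fold change was 0.80 ± 0.14, a ratio of 1.74 (edgeR adjusted p = 0.0408, from 5.13e-05 to 0.137 over the alternatives), so Rwdd2b rose. The 95% interval of 0.50 to 1.09 held the log2 of 1.5. The call was lost when any of 14 of the 16 libraries was left out, at edgeR adjusted p of 0.0726 to 0.137, and remained without WT 3 or Dp16 1, at 0.00205 and 0.048. The log2 fold change stayed between 0.73 and 0.89.

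Paxbp1, which joins PAX transcription factors to histone methyltransferase, read 24.6, 21.0, 25.2 and 19.6 CPM in WT, 28.8, 29.9, 36.1 and 38.002 in Dp16, 24.6, 27.8, 23.1 and 23.3 in 5xFAD and 32.0, 32.1, 34.5 and 37.8 in 5xFAD-Dp16. All carriers were above all non-carriers, by a pooled log2 fold change of 0.51 ± 0.099 (edgeR adjusted p = 0.0963, and 0.000505 with the length slope). Donson, a protein of the DNA replication fork, read 5.99, 6.87, 9.60 and 5.50 CPM in WT, 10.6, 10.3, 11.8 and 10.8 in Dp16, 7.38, 9.62, 8.16 and 8.74 in 5xFAD and 12.2, 10.5, 9.77 and 14.2 in 5xFAD-Dp16. Here too carriers were all above non-carriers, by 0.55 ± 0.13 (edgeR adjusted p = 0.298, and 0.00704 with the length slope). Donson shares 103 exonic bases with Son on the opposite strand, a gene with many more reads.

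The other genes of this group separated less. Mis18a, which helps deposit the centromeric histone CENP-A, read 6.55 to 14.8 CPM in carriers and 4.11 to 15.3 in non-carriers, with a pooled log2 fold change of 0.60 ± 0.24 (edgeR adjusted p = 1.0). Setd4, a lysine methyltransferase, stood at 0.70 ± 0.20 (edgeR adjusted p = 0.662), and Prdm15, a zinc finger transcription factor, at 0.34 ± 0.14 (edgeR adjusted p = 1.0). Prdm15 differed between backgrounds in its fitted value, at 0.11 in Dp16 against WT and 0.58 in 5xFAD-Dp16 against 5xFAD, but the test of that difference gave an edgeR adjusted p of 1.0 (unadjusted p = 0.116). Urb1, a factor of ribosome assembly, stood at 0.26 ± 0.21, and Chaf1b, a subunit of the chromatin assembly factor that follows the replication fork, at 0.28 ± 0.48. Chaf1b read 0 to 0.994 CPM, and its interval of -0.73 to 1.30 held both 0 and the log2 of 1.5. Of 21 tested genes of the replication fork and of centromere deposition elsewhere in the genome edgeR called 0, 1 had an unadjusted p under 0.05 (Mcm2, lower, at -0.45), and the median was -0.08.

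Rbm11, Btg3 and Smim11 had pooled log2 fold changes of 0.67, 0.54 and 0.70. Rbm11, a splicing regulator that is enriched in brain, read 9.72 to 20.7 CPM in carriers and 6.33 to 14.7 in non-carriers (edgeR adjusted p = 0.723, and 0.00239 with the length slope). Btg3, an antiproliferative protein, and Smim11, a small membrane protein, had edgeR adjusted p of 1.0 and 1.0, and of 0.00207 and 0.000182 with the length slope. In each of these 3 genes the highest non-carrier value was that of WT 3.

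Kcne2, Ripk4 and Clic6 had the 3 highest pooled log2 fold changes. Kcne2 encodes an accessory subunit of potassium channels known from the apical membrane of the choroid plexus and from stomach, and Clic6 a member of the chloride intracellular channel family that is also known from choroid plexus. Kcne2 (chr16:92292389-92298129) read 0.705, 1.499, 0.845 and 0.141 CPM in WT, 13.7, 0.0964, 0.248 and 20.3 in Dp16, 0.286, 0, 0 and 7.42 in 5xFAD and 16.8, 0.179, 0.0514 and 25.3 in 5xFAD-Dp16. It was above 7 CPM in 5 libraries (2 of Dp16, 1 of 5xFAD and 2 of 5xFAD-Dp16) and at most 1.499 CPM in the other 11. Within each carrier group 2 libraries were high and 2 were near 0. The fitted pooled log2 fold change was 3.25 ± 1.25 (edgeR adjusted p = 1.0), and 5.12 without 5xFAD 4. The fit without the low-count filter called Kcne2 (edgeR adjusted p = 6.55e-38), and DESeq2 did not (adjusted p = 0.736), so its p depended on the processing. Clic6 read 6.11, 4.13, 3.08 and 2.02 CPM in WT, 8.36, 4.87, 0.943 and 7.43 in Dp16, 1.86, 3.21, 0.437 and 5.00 in 5xFAD and 9.82, 4.56, 3.19 and 50.7 in 5xFAD-Dp16. Its pooled log2 fold change of 1.59 ± 0.62 (edgeR adjusted p = 1.0) was 0.83 without 5xFAD-Dp16 4, the library with the highest value. Clic6 too was called without the low-count filter (edgeR adjusted p = 3.08e-11) and not by DESeq2 (adjusted p = 0.66).

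Markers of the choroid plexus were high in the libraries with high Kcne2, and their highest sum was in the library with the highest Clic6. The summed level of 15 choroid plexus markers, which do not include Kcne2 or Clic6, was 1358 and 1582 CPM in Dp16 1 and 4, 846 in 5xFAD 4, and 1128 and 3031 in 5xFAD-Dp16 1 and 4. These are the 5 libraries with high Kcne2, and the sums of the other 11 ran from 171 to 619 CPM. Ttr, the transthyretin made by this epithelium, read 615 to 2181.9 CPM in the 5 and 5.21 to 302 CPM in the 11. All 15 markers were above 0 in the pooled Dp16 effect, with a median log2 fold change of 1.66; edgeR called 0, and 8 had an unadjusted p under 0.05. No marker was at 0 in all libraries, and 0 to 3 of the 15 were at 0 in a single library. The part of choroid plexus tissue in the Kcne2 and Clic6 values was not tested.

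**Figure D4:**
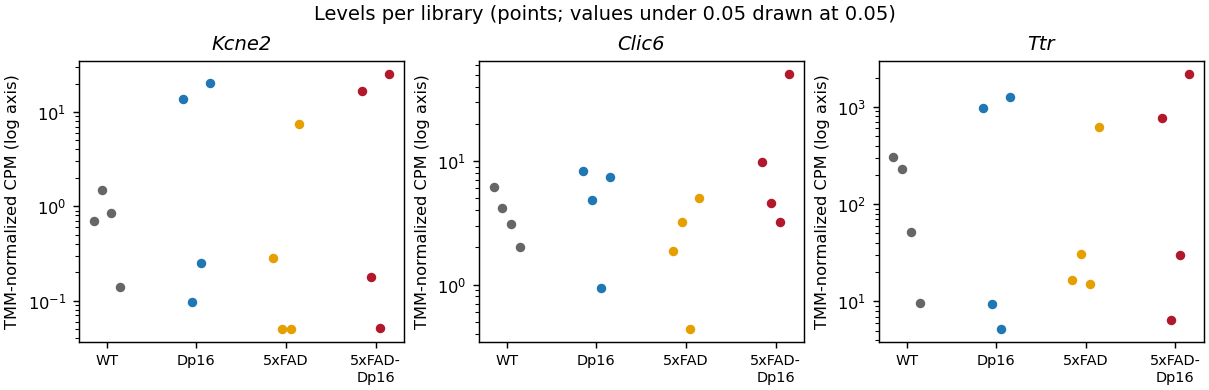
TMM-scaled CPM on log axes of Kcne2, Clic6 and the choroid plexus marker Ttr in each of the 16 libraries by group, with values under 0.05 drawn at 0.05. The 5 libraries with Kcne2 above 7 CPM are those with the 5 highest Ttr values, at 615 to 2181.9 CPM.

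The other channel genes were almost silent. Kcne1, the accessory subunit of the cardiac and inner ear channel, had 8 counts in carriers and 4 in non-carriers, a ratio per library total of 1.92 with an exact Poisson 95% interval of 0.515 to 8.72. Kcnj15, an inwardly rectifying potassium channel, had 3 counts in all, each in WT, so no ratio is given. Intervals of summed counts cover counting error only.

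Among genes known from other tissues, Ripk4, a kinase needed for skin barrier formation, read 0.529, 0.413, 0.302 and 0.282 CPM in WT, 0.656, 1.64, 1.54 and 2.60 in Dp16, 0.476, 0.493, 0.437 and 0.658 in 5xFAD and 1.61, 0.671, 0.771 and 1.79 in 5xFAD-Dp16. Carriers were above non-carriers within each background, and over both backgrounds the ranges met at 0.66 CPM. The pooled log2 fold change was 1.62 ± 0.33 (edgeR adjusted p = 0.120, from 0.00578 to 0.49 over the alternatives), and with the length slope 1.59 ± 0.36 (edgeR adjusted p = 0.0278). Its 95% interval of 0.92 to 2.31 lay above the log2 of 1.5. These values rest on few reads, 5 to 15 counts per library in non-carriers and 15 to 57 in carriers. The low-count filter asks for about 10, so Ripk4 could pass it through the carriers alone. Without the 3 libraries of lowest length slope the pooled value was 1.19 (edgeR adjusted p = 0.49). Chodl, the membrane lectin chondrolectin, known from motor neurons, read 1.18, 1.55, 3.44 and 0.564 CPM in WT, 2.14, 2.46, 2.58 and 4.69 in Dp16, 0.667, 1.18, 0.437 and 3.47 in 5xFAD and 2.47, 5.28, 1.80 and 2.58 in 5xFAD-Dp16. WT 3 and 5xFAD 4 lay within the carrier range. The pooled log2 fold change was 0.95 ± 0.42 (edgeR adjusted p = 1.0).

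B3galt5, a galactosyltransferase that builds glycan chains, read 49.3, 44.5, 28.2 and 40.8 CPM in WT, 71.8, 48.6, 43.8 and 44.7 in Dp16, 41.8, 32.7, 46.9 and 32.97 in 5xFAD and 53.9, 64.2, 62.6 and 71.8 in 5xFAD-Dp16. The amyloid groups were apart and the others overlapped. Its pooled log2 fold change was 0.53 ± 0.15 (edgeR adjusted p = 0.526, and 0.000119 with the length slope). C2cd2, a protein with a lipid-binding C2 domain, stood at 0.79 ± 0.19 (edgeR adjusted p = 0.298, and 0.000485 with the length slope), and it shares 86 exonic bases with Zbtb21.

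Sh3bgr, a gene of heart and skeletal muscle, Lca5l, a relative of the ciliary protein lebercilin, and Map3k7cl, a gene known from blood cells, showed no separation. Their pooled log2 fold changes were 0.35 ± 0.44, -0.10 ± 0.37 and -0.16 ± 0.28. The interval of Map3k7cl, -0.74 to 0.43, ended below the log2 of 1.5, and it did so at -0.77 to 0.48 with the length slope too, whereas without the 3 libraries of lowest slope its value was 0.08. Map3k7cl read 0.583 to 1.34 CPM in carriers and 0.567 to 1.87 in non-carriers. Sim2, a neural transcription factor, had 20 counts in carriers and 15 in non-carriers (ratio 1.28, exact Poisson 95% interval 0.624 to 2.69). Tmprss2, a serine protease of epithelia, had 14 and 8 (ratio 1.68, 0.659 to 4.63), and Fam3b, a secreted protein of the pancreas, 4 and 1 (ratio 3.84, 0.38 to 189). These counts were too few to tell 3:2 from no difference.

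Runx1 and Erg, transcription factors of blood and of vessel cells, gave pooled effects near 0. Erg, which marks endothelial cells, read 4.82, 1.81, 0.423 and 5.17 CPM in WT, 4.29, 2.699, 1.84 and 1.82 in Dp16, 4.24, 3.45, 4.23 and 3.03 in 5xFAD and 3.36, 2.64, 3.45 and 5.91 in 5xFAD-Dp16. WT 3, with the lowest value, also had the lowest sum of 12 endothelial markers, 92.3 CPM, where the other libraries ran from 102 to 291 CPM. Erg had a pooled log2 fold change of -0.083 ± 0.37 with an interval of -0.87 to 0.70, 0.17 ± 0.20 with the length slope, and -0.27 without WT 3. Of the 12 endothelial markers, none of which was at 0 in any library, edgeR called 0 in the pooled effect, 1 had an unadjusted p under 0.05 (Emcn, lower), and the median was -0.26. With the length slope their median was -0.08, and 4 of 12 were above 0 where the main fit had 1. The part of endothelial RNA in the Erg values was not tested.

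Runx1 read 1.23, 0.982, 0.241 and 1.13 CPM in WT, 1.44, 0.675, 1.49 and 0.957 in Dp16, 3.38, 2.42, 4.63 and 1.54 in 5xFAD and 3.77, 0.940, 2.47 and 3.08 in 5xFAD-Dp16. Carriers and non-carriers overlapped in both backgrounds, and the pooled log2 fold change was 0.049 ± 0.34 with an interval of -0.67 to 0.77. Every 5xFAD library was above every WT library, which 3.67% of all genes were. The log2 fold change in 5xFAD against WT was 1.64 ± 0.50 (edgeR adjusted p = 0.188, from 0.00833 to 0.513 over the alternatives, with the lowest for the length slope), and DESeq2 called it with an adjusted p of 0.0443. In 5xFAD-Dp16 against Dp16 it was 1.09 ± 0.48 (edgeR adjusted p = 0.980). Of 14 microglia and myeloid markers, 0 were above 0 in the pooled Dp16 effect, with a median log2 fold change of -0.35. There edgeR called 0, and 8 had an unadjusted p under 0.05, all lower. The median was -0.14 in Dp16 against WT, with 0 at an unadjusted edgeR p under 0.05. In 5xFAD-Dp16 against 5xFAD it was -0.54, with 11 lower at that limit, so most of the pooled value came from the amyloid background. The part of these cells in the pooled Runx1 value was not tested.

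In 5xFAD against WT edgeR called 1 of the 33 genes higher, where it called 1.5% of all genes higher. It was Mx1, an interferon-induced GTPase of antiviral defence, which the annotation lists with Mx2 as a polymorphic pseudogene, since many inbred strains carry a defective copy. Mx1 (chr16:97447035-97462907) read 0.118, 0.207, 0.604 and 0.188 CPM in WT, 0.525, 0.386, 1.24 and 0.638 in Dp16, 2.91, 1.23, 1.62 and 2.99 in 5xFAD and 3.59, 1.39, 1.08 and 3.13 in 5xFAD-Dp16. All 5xFAD libraries were above all WT libraries, while Dp16 3 lay above the lowest 5xFAD-Dp16 library. The log2 fold change in 5xFAD against WT was 3.03 ± 0.53, a ratio of 8.15 (edgeR adjusted p = 0.00594, from 1.56e-06 to 0.03 over the alternatives), so Mx1 rose. Leaving out any 1 library kept that call. The values rest on few reads, 2 to 10 counts per library in WT and 25 to 68 in 5xFAD. The low-count filter asks for about 10, so Mx1 could pass it through the libraries with transgenes alone. With the length slope 2 of the 33 genes were called, Mx1 and Runx1, where 3.99% of all genes were called higher, and DESeq2 called the same 2, where it called 1.99%.

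In 5xFAD-Dp16 against Dp16 edgeR called 0 of the 33 genes, where it called 0.387% of all genes higher; 2 had an unadjusted p under 0.05, both higher, beside 3.18% of all genes, and DESeq2 called 0, beside 0.851%. Mx1 stood at 1.62 ± 0.48 there (edgeR adjusted p = 0.338), and with the length slope at 1.84 (edgeR adjusted p = 0.0390), the 1 call of that fit, where 1.2% of all genes were called higher. The Dp16 effect on Mx1 was 1.34 ± 0.54 without and -0.069 ± 0.45 with the transgenes. The test of that difference gave -1.41 ± 0.71 with an unadjusted p of 0.0654 and an edgeR adjusted p of 1.0, so the effects were not shown to differ between backgrounds.

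Mx2, the related GTPase, read 0.529, 1.24, 1.39 and 0.376 CPM in WT, 0.744, 0.578, 2.73 and 2.32 in Dp16, 3.67, 0.592, 1.83 and 3.42 in 5xFAD and 3.23, 1.52, 3.55 and 3.08 in 5xFAD-Dp16. The groups overlapped in every comparison, and the log2 fold change in 5xFAD against WT was 1.42 ± 0.61 (edgeR adjusted p = 0.614). Of 28 other interferon-stimulated genes edgeR called 16 higher in 5xFAD against WT, with a median log2 fold change of 1.68, and 3 in 5xFAD-Dp16 against Dp16, with a median of 1.06. Lgals3bp, a secreted glycoprotein, at 2.47, and Irf9, a transcription factor of the interferon response, at 1.53, had the smallest p in the first. The same 28 had a pooled Dp16 median of -0.09, with 0 called and 0 at an unadjusted p under 0.05. The separate comparisons lay on opposite sides of 0, at a median of 0.17 in Dp16 against WT, with 20 of 28 above 0, and of -0.45 in 5xFAD-Dp16 against 5xFAD, with 2 of 28 above 0. EdgeR called 0 in both; in the first 2 were higher and 1 lower at an unadjusted p under 0.05, and in the second 3 were lower. The summed level of the 14 microglia and myeloid markers was 770 to 1047 CPM in WT and 760 to 893 in Dp16, and 2473 to 3408 in 5xFAD and 1234 to 2552 in 5xFAD-Dp16. None of the 14 was at 0 in any library. The part of myeloid cells in the transgene effects on Mx1, Mx2 and Runx1 was not tested.

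**Figure D5:**
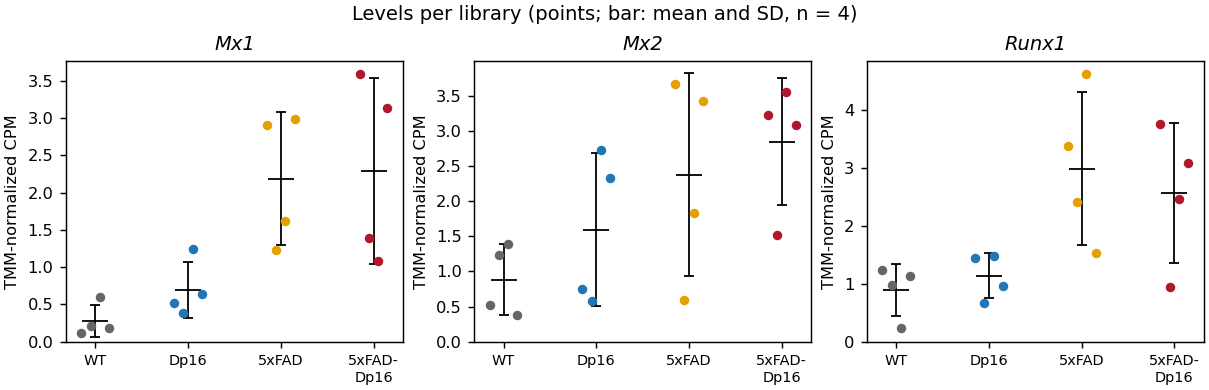
TMM-scaled CPM (y axis, from 0) of Mx1, Mx2 and Runx1 in each of the 16 libraries by group, with group mean and SD (n = 4). The 4 5xFAD libraries lie at 1.23 to 2.99 CPM for Mx1 and at 1.54 to 4.63 CPM for Runx1, all above the WT libraries, whose highest values are 0.604 and 1.23 CPM.

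Apart from Mx1, none of the 33 genes was called for the transgenes in the main test. The median log2 fold change over all 33 was -0.14 in 5xFAD against WT, with 11 of 33 above 0, and 0.00 in 5xFAD-Dp16 against Dp16, with 17 of 33 above 0. The 4 mitochondrial genes were below 0 in both, with medians of -0.35 and -0.36, and none had an unadjusted p under 0.05. The 15 other ATP synthase genes had medians of -0.34 and -0.42, and the 75 other mitochondrial ribosomal proteins -0.30 and -0.30. With the length slope the medians of the 4 genes were -0.20 and -0.09, so these values moved with the slope. The 15 ATP synthase genes then had medians of -0.14 and -0.13, and the 75 ribosomal proteins -0.17 and -0.08. In 5xFAD against WT edgeR with the slope called 0 of the 15 and 3 of the 75 lower. At an unadjusted p under 0.05, 4 of the 15 and 23 of the 75 were lower there, where the main test had 0 and 1. In 5xFAD-Dp16 against Dp16 with the slope it was 1 and 4, with 0 called.

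The test of whether the Dp16 effect differed with the transgenes called 0 of the 33 genes by edgeR, where it called 0.0% of all genes in either direction. By edgeR 0 of the 33 had an unadjusted p under 0.05, where 1.36% of all genes did, and DESeq2 called 0. The median of this difference was 0.12, beside 0.04 over all genes tested, and 21 of 33 genes were above 0. Differences between the backgrounds smaller than the intervals of single genes could not be detected with these libraries.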

How the data were processed

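Polyadenylated cortical RNA of 16 mice was sequenced as strand-specific paired-end libraries, per the labels' protocols. The submitters' processing notes list HTSeq 0.6.1, SAMtools 1.5, FastQC 0.11.5 and HISAT2 2.1.0 and the build GRCm38; no source used here states the strand setting of the counting. The authors deposited whole-number read counts per gene and, separately, RPKM values, with a GENCODE M24 annotation per the file headers. Groups were taken from the labels.

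Counts were tested with edgeR 4.0.16 (quasi-likelihood, robust, TMM) in R 4.3.3, on all 16 libraries with sex as covariate and genes passing filterByExpr (minimum count 10), with Benjamini-Hochberg adjustment over 17555 genes. RPKM served for levels, classes and limma 3.58.1 alternatives on log2(RPKM + 0.1) and log2(RPKM + 1). Other alternatives were a replicate block, leaving out the sex term or the low-count filter, scaling by RLE, DESeq2 1.42.0, the length slope of 11617 genes as a covariate, and libraries left out. Intervals are 95%. The genes, lists, level classes and tests were chosen with earlier results of these data known. Genes named from the comparison lists are the 2 of smallest p and, among those called, the 2 of smallest p; Mx1, Mx2 and Runx1 were picked for the transgene comparisons, and Mcm2 and Emcn as single exceptions, after their values were seen. Same-numbered samples did not deviate together throughout, so numbers were not used as pairs. The scripts were tested on simulated data.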

Additional observations from a re-analysis of the deposited data

Results flagged for a closer look

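In 7 of 132 sets of 4 libraries of 1 group, 1 library lay far from the other 3 for its gene; chance alone marks about 1 set in 20. WT 3 stood high for Mrps6, at 70.1 CPM where the others read 18.6 to 25.7, and for Pigp, at 63.8 CPM where the others read 15.5 to 23.3. That library had the lowest length slope of the 16, -0.44. Dp16 1 stood high for B3galt5, at 71.8 CPM where the other Dp16 libraries read 43.8 to 48.6. Dp16 4 stood high for Chodl, at 4.69 CPM where the others read 2.14 to 2.58, and 5xFAD 1 stood low for Mis18a, at 5.29 CPM where the others read 7.20 to 7.42. 5xFAD 4 stood high for Kcne2, at 7.42 CPM where the others read 0 to 0.286, and 5xFAD-Dp16 4 stood high for Clic6, at 50.7 CPM where the others read 3.19 to 9.82. These 2 libraries had the highest sums of choroid plexus markers in their groups, 846 and 3031 CPM. No explanation of these values was tested.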

How the results depend on the processing

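Over 25 alternatives the median log2 fold change of the 33 genes stayed near 3:2 except without WT replicate 3; leaving out each library in turn gave 0.458 to 0.974 in Dp16 against WT and 0.499 to 0.796 pooled, and 0 to 10 genes called pooled. Of 2652 values of single genes 2489 kept their direction and side of the threshold, 28 lost the call, 79 gained it and 56 turned direction, in 20 of 108 results. The number of the 33 genes called in Dp16 against WT was 0 in the main test, 2 with DESeq2, 1 without the low-count filter and 7 with the length slope. In 5xFAD-Dp16 against 5xFAD the same settings gave 1, 2 and 14. For the pooled effect they gave 7, 13 and 18, limma on log2(RPKM + 0.1) and on log2(RPKM + 1) gave 4 and 4, and leaving out the 3 libraries of lowest length slope gave 5. In 5xFAD against WT DESeq2 gave 2, no low-count filter 3 and the length slope 2. In 5xFAD-Dp16 against Dp16 the last 2 gave 2 and 1, and no low-count filter gave 1 for the difference between backgrounds. Without that filter, the gene called in Dp16 against WT was Kcne2, and the one called for the difference between backgrounds was Clic6. Kcne2 and Clic6 were also the genes it gave in 5xFAD-Dp16 against 5xFAD and in 5xFAD-Dp16 against Dp16. The cause was not tested.

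The replicate block moved the pooled count from 2 to 0. Same-numbered samples correlated from -0.387 to 0.657, and the sources used here do not say that numbers mark shared litters. Under the replicate block Erg was -0.030 in 5xFAD-Dp16 against 5xFAD and Runx1 -0.017 pooled.

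The following values turned direction; among their main values Mx2 in Dp16 against WT, at 0.86, was farthest from 0. With the length slope Erg was 0.36 in Dp16 against WT, -0.024 in 5xFAD-Dp16 against 5xFAD and 0.17 pooled. With limma on log2(RPKM + 0.1) Erg was 0.13 in Dp16 against WT and 0.070 pooled, and Mx1 was 0.016 in 5xFAD-Dp16 against 5xFAD. With limma on log2(RPKM + 1) Mx1 was 0.023 in the same comparison and Runx1 was -0.0069 pooled, and without the sex term Mx1 was 0.072. Without the 3 libraries of lowest slope the values in Dp16 against WT were -0.13 for Mx2, -0.055 for Urb1, 0.066 for Map3k7cl, -0.070 for Runx1 and -0.23 for Chaf1b, and pooled 0.084 for Map3k7cl and -0.15 for Runx1. The cause was not tested.

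Leaving out each library in turn, Dp16 against WT ran from -0.060 to 0.22 for Prdm15, -0.61 to 0.27 for Erg, -0.027 to 1.07 for Sh3bgr, -0.093 to 0.53 for Urb1, -1 to 0.078 for Lca5l, -0.036 to 0.58 for Runx1 and -0.22 to 1.05 for Chaf1b. In 5xFAD-Dp16 against 5xFAD it ran from -0.27 to 0.18 for Erg, -0.052 to 0.79 for Sh3bgr, -0.073 to 0.65 for Mx2, -0.11 to 0.30 for Map3k7cl, -0.32 to 0.32 for Mx1, -0.13 to 0.36 for Lca5l and -0.42 to 0.032 for Runx1. The pooled effect ran from -0.29 to 0.15 for Erg, -0.43 to 0.10 for Lca5l and -0.13 to 0.19 for Runx1. Of the 11 genes under 1 RPKM, 8 had pooled intervals that held both 0 and the log2 of 1.5; the shares of depth and of the spread between mice in these intervals were not tested.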
